A study of Culex quinquefasciatus with 20 samples.

Results

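Of the 17499 genes tested in female *Culex quinquefasciatus*, 104 are described here. These had lower RNA levels in every pool of females exposed to malathion than in every pool of unexposed females. They also met criteria on their level and on the size of the difference. They were chosen from their values by a rule. Levels were TMM CPM, the count of a gene over the total of its library after TMM scaling, which sets the libraries to a common scale from the bulk of the genes. A member had a mean of at least 1 CPM in each unexposed group and under 1000 CPM over all 20 libraries. Every exposed library lay below every unexposed library, and the mean of each exposed group was at most 0.5 times the lower of the unexposed means. The rule allowed up to 200 genes and the 104 that met it were all taken, after the gene CPIJ001380, which also met every criterion, was left out by name. The filter on low counts was passed by all members, because the rule started from the 17499 genes that passed it among 19793 counted.

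RNA was sequenced from 4 groups of 5 libraries, each library a pool of 10 whole females. The MR group (malathion resistant) were field females of wild genotype from Harris County, Texas, that were exposed at 3 days of age to 400 µg malathion per bottle for 120 min and were alive after a further hold of 24 h, so that they were older than the other groups at collection. The MS group (malathion susceptible) were field females of the same origin, genotype and age at exposure that went down in the same exposure and were dead at its end. The WI group (wild) were unexposed field females of the same origin, raised from collected eggs and taken 3 days after emergence. The CO group (colony) were unexposed females, 3 days old, of Sebring, a laboratory susceptible colony that started in Florida. The study describes a knockdown by cold before storage for WI and CO females and no such step for MR and MS. MR females were also collected later and at a greater age, and MS females died before collection. These differences, the malathion itself and the time in the bottle cannot be told apart in this design. A bulk pool does not separate fewer cells of a type from less RNA per cell. The study calls the 5 libraries of a group technical and the labels call them biological replicates, so the p-values measure the spread between these pools.

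Library totals ran between 143972261 and 189723320 counts. The share taken by the most counted pair of genes in each library was 13.7 to 25.9% in MR, 11.5 to 32.7% in MS, 10.9 to 23.1% in WI and 4.51 to 13.4% in CO. TMM factors were 1.01 to 1.22 in MR, 0.563 to 1.08 in MS, 0.807 to 1.34 in WI and 0.841 to 1.72 in CO, and the part of these differences in the results was not tested. The gene identifiers carry no names in the counts, and markers of tissues could not be checked.

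Malathion is an organophosphate insecticide. In insects it is oxidised to malaoxon, which blocks acetylcholinesterase, the enzyme that clears the transmitter acetylcholine from the synapse. Cytochrome P450s, esterases and glutathione S-transferases are the enzyme families best known for breaking such compounds down. The nucleolus, which returns in the results, is the part of the nucleus where ribosomal RNA is made and cut to size and where ribosomal subunits are first put together.

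Names or functional terms were available for few members. The study's lists of detoxification genes and of Gene Ontology (GO) terms gave a term for 18 members and none for 86, and of 94 detoxification genes 1 was a member, CPIJ003361, cytochrome P450 6BY2. Those lists hold only genes that the study called between MR and MS or between WI and CO in these same libraries. A term therefore says what a member is annotated to do, and the number of members with a term is not independent of the comparisons below.

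As a block, the members took 0.326 to 0.464% of all counts in MR libraries and 0.146 to 0.272% in MS libraries, against 0.812 to 1.28% in WI libraries and 1.12 to 1.72% in CO libraries. Their summed level was 3460 ± 348 CPM in MR and 2422 ± 141 CPM in MS, against 9666 ± 1509 CPM in WI and 11499.9 ± 2909 CPM in CO (SD, n = 5 each). These sums follow from the rule and are given with no test. The median member was 2.89-fold lower in MR than in WI, 3.94-fold lower in MS than in WI, 3.39-fold lower in MR than in CO and 4.97-fold lower in MS than in CO. The median log2 fold change of the members was -1.53 for MR over WI, -1.98 for MS over WI, -1.76 for MR over CO and -2.31 for MS over CO, beside -0.0085, -0.069, -0.050 and -0.10 over all genes tested. edgeR called 100 of the 104 lower in MR than in WI, 103 lower in MS than in WI, and 104 lower in each of MR and MS than in CO. Over all genes tested the same calls took 3.99%, 11%, 9.96% and 18.9%, and nothing is read from the members' counts, which the rule fixed. These 4 comparisons also share libraries with each other.

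**Figure D1:**
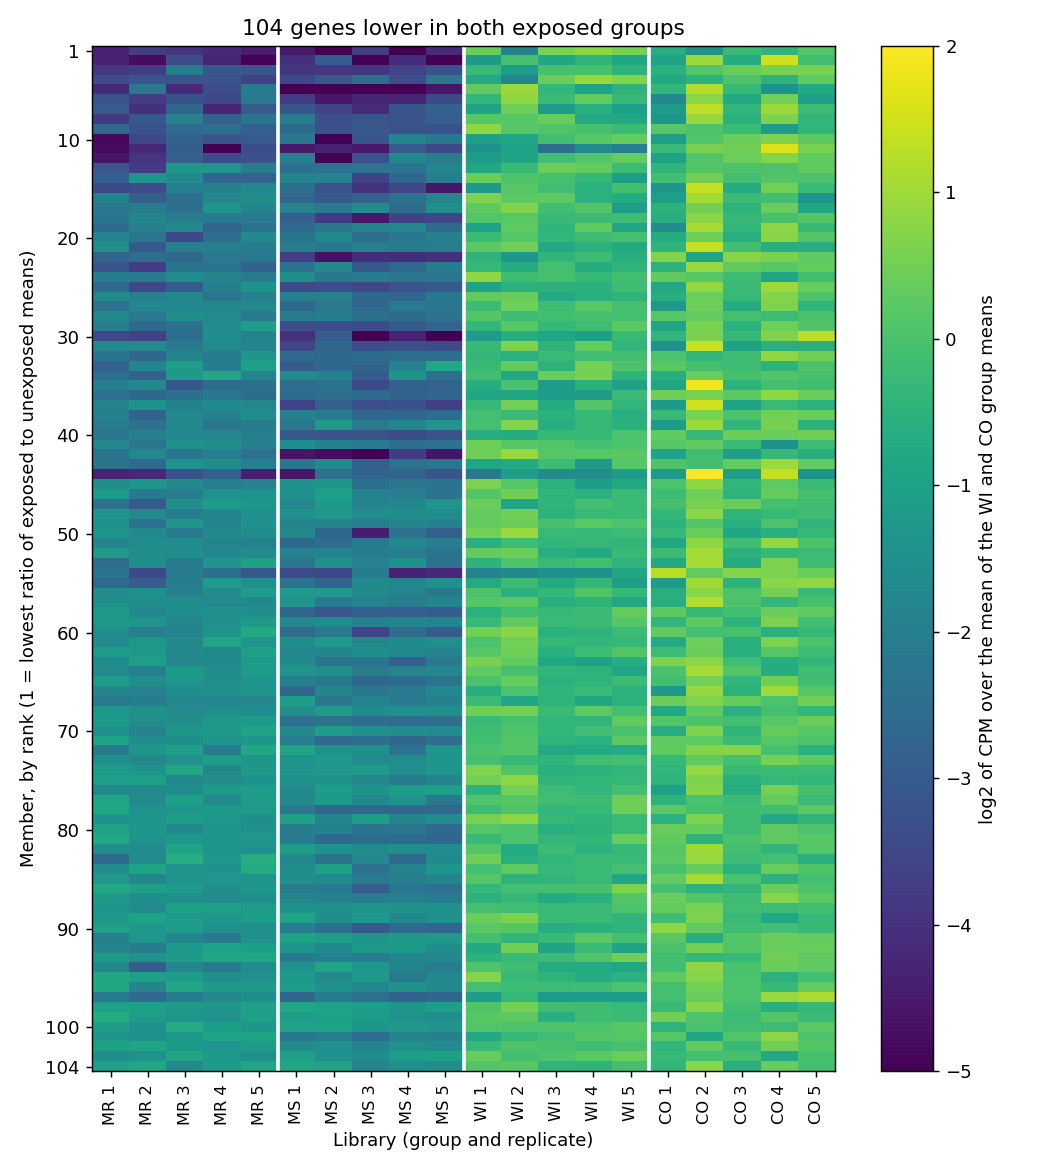
Level of the 104 members in each of the 20 libraries. Rows are members in order of rank and columns are libraries, grouped as MR, MS, WI and CO. Colour is the log2 of the CPM in the library over the mean of the WI and CO group means, with 0.1 CPM added to both, drawn from -5 to 2. The MR and MS columns are darker than the WI and CO columns in every row, as the rule required, with the darkest cells at the top ranks, and CO 2 is among the brightest columns.

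How far the exposed and unexposed libraries stood apart varied widely among the members. The ratio used for ranking, the higher exposed mean over the lower unexposed mean, was 0.0573 for the first member, 0.381 for the median member and 0.4999 for the last. It was at most 0.25, a difference of 4-fold or more, in 18 members. The lowest unexposed library was 1.33-fold above the highest exposed one in the median member and between 1.00 and 4.42-fold above it over all members. The highest exposed library was an MR library in 82 members and an MS library in 22. The lowest unexposed library was a WI library in 58 members and a CO library in 46, most often CO 1, which set it in 22, and WI 3, which set it in 19.

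The first 4 members by rank carry no name, and all were under 1 CPM in every exposed pool. CPIJ012752, the first, had 0.184, 0.348, 0.287, 0.225 and 0.171 CPM in the MR pools and 0.161, 0.0359, 0.338, 0.0472 and 0.231 CPM in the MS pools. It had 7.60, 1.54, 8.75, 9.88 and 8.50 CPM in the WI pools and 3.64, 2.14, 4.91, 4.24 and 6.29 CPM in the CO pools, so that the lower unexposed mean was 17.5-fold above the higher exposed mean. The single low unexposed pool, WI 2, still lay above all 10 exposed pools. CPIJ012716 had 0.282, 0.190, 0.699, 0.314 and 0.160 CPM in MR pools and 0.373, 0.910, 0, 0.362 and 0 CPM in MS pools, with no read in MS 3 and MS 5. In the unexposed groups it had 3.38, 7.43, 4.33, 5.84 and 4.22 CPM in WI and 3.93, 15.2, 4.91, 21.6 and 7.16 CPM in CO, highest in CO 2 and CO 4. CPIJ018085 was counted 0, 2, 44, 13 and 12 times in MR pools and 0, 0, 0, 3 and 6 times in MS pools, against 260, 88, 279, 217 and 136 times in WI pools and 257, 295, 436, 280 and 480 times in CO pools. MR 1 and 3 MS pools had no read of it, and the gene had at most 2.09 CPM in any library. CPIJ002237 ranged from 0.114 to 0.201 CPM in MR and 0.135 to 0.471 CPM in MS, against 0.685 to 5.01 CPM in WI and 1.46 to 3.22 CPM in CO. In all, 4 members had no count in at least 1 exposed library, and no member had a count of 0 in an unexposed one.

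Members further down the ranking included some at higher levels, and the rule required the same order of exposed and unexposed pools in them. CPIJ016941, at rank 9 and without a name, had 51.2, 34.99, 55.9, 59.8 and 46.4 CPM in MR and 54.9, 34.5, 38.5, 35.3 and 35.3 CPM in MS. It had 576, 373, 348, 319.7 and 282 CPM in WI and 375, 348, 285, 151 and 252 CPM in CO, and its highest exposed pool, MR 4, lay well under its lowest unexposed pool, CO 4. CPIJ015027 had 9.51, 6.41, 9.35, 8.09 and 21.00 CPM in MR and 6.50, 3.75, 4.57, 4.52 and 7.83 CPM in MS. Its unexposed pools had 69.5, 159, 75.8, 112 and 71.5 CPM in WI and 28.3, 153, 51.6, 127 and 43.9 CPM in CO, with CO 1 as the nearest to the exposed pools. CPIJ001507 ranged from 8.61 to 26.3 CPM in MR and 9.09 to 23.4 CPM in MS, against 73.3 to 226 CPM in WI and 75.6 to 402 CPM in CO. CPIJ010690 ranged from 0.472 to 2.07 CPM in MR and 0.730 to 1.87 CPM in MS, against 4.59 to 10.5 CPM in WI and 3.26 to 15.2 CPM in CO. CPIJ007641, at rank 10, ranged from 0.251 to 1.33 CPM in MR and 0.144 to 2.76 CPM in MS, against 4.76 to 12.5 CPM in WI and 4.84 to 15.5 CPM in CO. None of these 5 genes was called between MR and MS or between WI and CO.

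The 5 members with the most reads in unexposed females were CPIJ009446, CPIJ011725, CPIJ010968, CPIJ015535 and CPIJ001130. CPIJ009446, which has no printed term, had 652, 502, 512, 474 and 498 CPM in MR and 414, 369, 355, 358 and 334 CPM in MS. It had 984, 1145, 876, 987 and 1570.1 CPM in WI and 1937, 1546, 1244, 2368 and 1681 CPM in CO, and its lowest unexposed pool stood well above MR 1, the highest exposed pool. CPIJ011725 had 282, 188, 216, 369 and 529 CPM in MR and 112, 114, 105, 138 and 172 CPM in MS. It had 868, 1280.4, 889, 995 and 1331 CPM in WI and 614, 1699.6, 791, 1553 and 1206 CPM in CO, and every MR pool also lay above every MS pool. CPIJ010968 averaged 208 ± 40.1 CPM in MR and 239.6 ± 23.5 CPM in MS, against 667 ± 206 CPM in WI and 662 ± 276 CPM in CO (SD, n = 5 each). CPIJ015535 averaged 205 ± 40.7 CPM in MR and 230.2 ± 38.99 CPM in MS, against 522 ± 161 CPM in WI and 576 ± 277 CPM in CO (SD, n = 5 each). In both of these genes the MR and MS ranges overlapped and so did the WI and CO ranges.

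**Figure D2:**
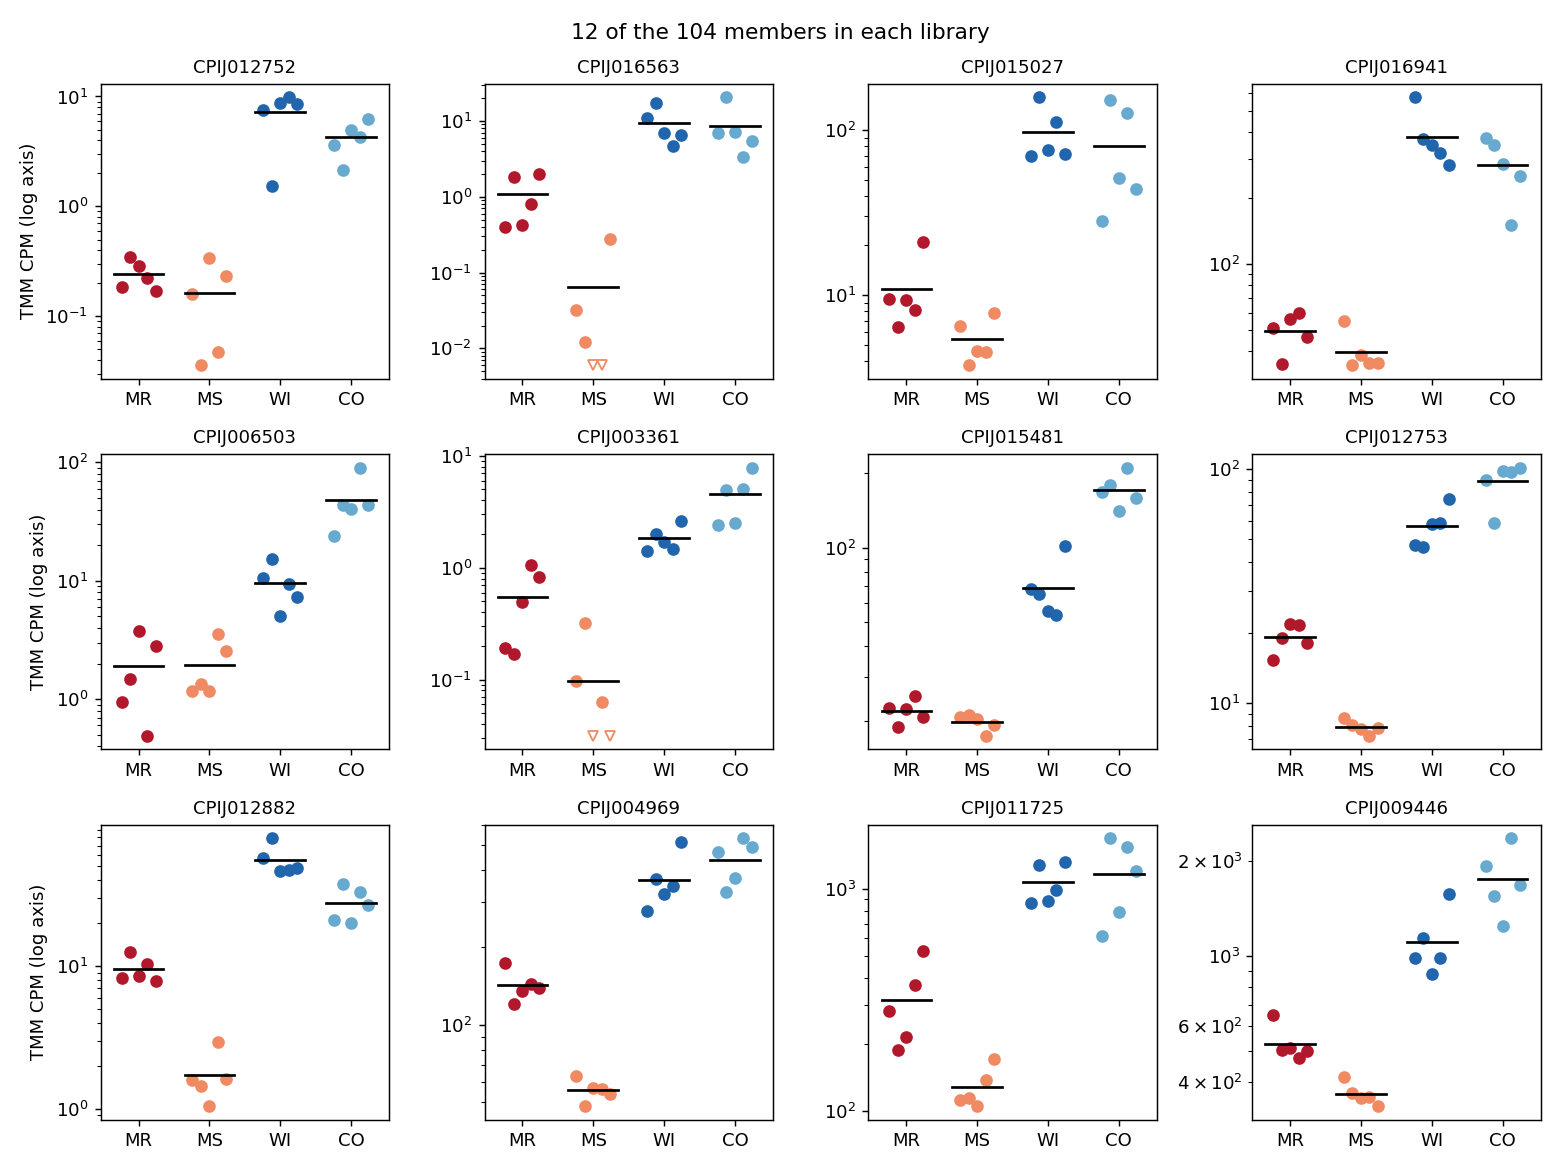
TMM CPM (log axis, set for each gene) of 12 members in each library, with MR, MS, WI and CO from left to right. Filled points are libraries, open triangles are libraries with no read drawn at 0.5 times the gene's lowest value above 0, and bars are group means. All filled points of MR and MS lie below those of WI and CO, and in CPIJ012753 and CPIJ012882, among others, the MR points also lie above all MS points.

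The rule did not order MR against MS, and this comparison within the exposed females was tested, although both groups are bounded from above. Over all genes, 11% were called lower and 12.3% higher in MS than in WI, against 3.99% and 4.95% for MR. A rule that asks for low levels in both groups may thus favour genes that are lower still in MS, which was not tested. The shares over all genes below are not matched to the rule. Of the 104 members, 21 were called higher in MR than in MS by edgeR (FDR under 0.05 over all genes tested) and 0 were called lower. Over all genes tested 2.76% were called higher and 4.18% lower. At an unadjusted p under 0.05 the counts were 33 higher and 2 lower, and DESeq2 called 22 higher and 0 lower. The shares over all genes were not taken for these counts, so nothing is read from them. The point estimate was higher in MR for 84 members, beside 52.7% of all genes, and the median log2 fold change was 0.34 over the members and 0.042 over all genes. All 5 MR pools lay above all 5 MS pools in 23 members, beside 6.63% of all genes, and the reverse was seen in 0 members, beside 6.86%. Scaling by library size alone moved the median of all genes to 0.62 and the calls to 44 of the members, with 1843 higher and 117 lower over all genes, against 483 and 732 with TMM. The number of members above the all-gene median was 78 under both scalings.

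The largest MR to MS difference among the called members was in CPIJ016563, annotated with monooxygenase activity, the insertion of 1 oxygen atom into a substrate. This gene is not among the P450s of the study's lists and is not in the heme binding term. It was counted 65, 337, 70, 135 and 352 times in MR pools and 5, 1, 0, 0 and 29 times in MS pools, against 2476, 2582, 1432, 756 and 926 times in WI pools and 1917, 4038, 1739, 445 and 1247 times in CO pools. No MS pool reached the lowest MR pool in CPM (log2 fold change 4.11, SE 0.86, FDR 0.00502, edgeR). The estimate rests on few MS reads, most of them in MS 5, and was 6.40 without that pool and between 3.73 and 6.40 over all pools left out in turn. CPIJ003361, the cytochrome P450 6BY2 gene, was counted 31, 31, 82, 179 and 144 times in MR pools and 15, 27, 0, 8 and 0 times in MS pools, against 317, 300, 347, 240 and 369 times in WI pools and 661, 960, 603, 679 and 1804 times in CO pools. It passed the threshold for MR over MS (log2 fold change 2.55, SE 0.77, FDR 0.0463, edgeR), with overlapping pools. That call was lost in 14 of the 20 fits that left out 1 library, with an FDR of up to 0.124 without MR 4, and in the fit of MR and MS alone, at 0.112.

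CPIJ012882 is annotated with arginine metabolism and the synthesis of amino acids of the glutamine family. It had 8.29, 12.5, 8.55, 10.3 and 7.87 CPM in MR and 1.58, 1.44, 1.04, 2.91 and 1.63 CPM in MS. It had 57.2, 78.99, 46.03, 47.1 and 48.4 CPM in WI and 21.2, 37.5, 20.1, 33.1 and 26.7 CPM in CO, so that the order of the groups was MS, MR, CO and WI with no overlap between neighbours. It was higher in MR than in MS (log2 fold change 2.46, SE 0.27, FDR 6.33e-06, edgeR). It was also the 1 member called higher in WI than in CO (log2 fold change 1.00, SE 0.25, FDR 0.0136, edgeR), a call that scaling by library size alone did not keep, at an FDR of 0.0856. CPIJ012753, annotated with hydro-lyase activity and the synthesis of sulfur compounds and amino acids, had 15.2, 18.95, 21.7, 21.5 and 18.1 CPM in MR and 8.66, 8.10, 7.77, 7.26 and 7.87 CPM in MS. It had 47.2, 46.3, 58.4, 58.7 and 74.4 CPM in WI and 89.8, 58.7, 98.4, 96.7 and 101 CPM in CO, with no overlap of MR and MS and with CO 2 inside the WI range. It was higher in MR than in MS (log2 fold change 1.27, SE 0.18, FDR 0.000204, edgeR) and lower in WI than in CO (log2 fold change -0.64, SE 0.18, FDR 0.0248, edgeR). CPIJ003537, annotated with carbohydrate binding, had 3.75, 4.62, 4.00, 5.57 and 5.76 CPM in MR and 1.87, 0.898, 1.45, 1.44 and 1.47 CPM in MS, again with no overlap. It had 19.03, 10.9, 19.6, 22.9 and 17.4 CPM in WI and 41.9, 14.5, 43.5, 39.4 and 31.6 CPM in CO, with CO 2 inside the WI range. It was higher in MR than in MS (log2 fold change 1.73, SE 0.27, FDR 0.00052, edgeR) and lower in WI than in CO (log2 fold change -0.93, SE 0.27, FDR 0.0277, edgeR). The WI to CO calls of CPIJ012753 and CPIJ003537 were each lost without any of 4 single pools, WI 2 and CO 3 among them, with FDR values of at most 0.0807, and in the fit of WI and CO alone, at 0.14 and 0.123.

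Among the members with a term, 4 were annotated with the nucleolus, ribosome biogenesis or ribosomal RNA processing, and these were brought together after their values were seen. CPIJ004969, annotated with the maturation of large subunit ribosomal RNA, had 173, 120.2, 136, 144 and 139 CPM in MR and 63.1, 48.2, 56.7, 56.2 and 53.8 CPM in MS. It had 277, 371, 323, 347 and 515 CPM in WI and 471, 327, 373, 533 and 494 CPM in CO, and MR and MS did not overlap (log2 fold change 1.36, SE 0.20, FDR 0.000217, edgeR). CPIJ001130, annotated with ribosome biogenesis, had 216, 139, 145, 159.5 and 169 CPM in MR and 102, 69.2, 76.3, 66.7 and 74.6 CPM in MS. It had 379.7, 443, 302, 286 and 483 CPM in WI and 498, 489.5, 349, 458 and 426 CPM in CO, and again every MR pool lay above every MS pool (log2 fold change 1.09, SE 0.20, FDR 0.00169, edgeR). CPIJ004960, of the nucleolus term, averaged 154 ± 24.5 CPM in MR and 60.2 ± 9.19 CPM in MS, against 344 ± 88.4 CPM in WI and 359.6 ± 51.03 CPM in CO (SD, n = 5 each; log2 fold change 1.36, SE 0.20, FDR 0.000217 for MR over MS, edgeR). CPIJ012739, annotated with ribosomal RNA processing, averaged 141 ± 24.99 CPM in MR and 79.2 ± 9.70 CPM in MS, against 290.3 ± 80.6 CPM in WI and 303 ± 79.4 CPM in CO (SD, n = 5 each; log2 fold change 0.83, SE 0.22, FDR 0.0213 for MR over MS, edgeR). CPIJ007261, which is outside these terms and annotated with the methylation of RNA and the processing of transfer RNA, averaged 11.6 ± 1.98 CPM in MR and 6.15 ± 0.984 CPM in MS, against 23.5 ± 5.78 CPM in WI and 28.9 ± 10.8 CPM in CO (SD, n = 5 each; log2 fold change 0.92, SE 0.24, FDR 0.0232 for MR over MS, edgeR). The calls of CPIJ012739 and CPIJ007261 were lost without 5 and 6 of the single pools, with FDR values of up to 0.0711 and 0.0866, both without MS 3.

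The other genes of these terms were set against unexposed field females in the same fit. The nucleolus term lists 33 genes, of which 3 are members. Of the other 30, edgeR called 6 lower and 0 higher in MR than in WI (median log2 fold change -0.089) and 21 lower and 0 higher in MS than in WI (median -1.20). Between MR and MS, 23 of the 30 were higher in MR and 0 lower. The study drew this list and the next ones from its MR to MS calls in these libraries, which favours genes that differ between MR and MS in either direction. The other genes are also those that remained after the rule took the members. None of the counts in this paragraph, those of MR against WI included, is independent of these choices, and nothing is read from them. Over all genes tested, 3.99% were called lower and 4.95% higher in MR than in WI, and 11% lower and 12.3% higher in MS than in WI. Of the 25 other genes of the ribosomal RNA processing term, 1 was lower and 0 higher in MR than in WI, while 20 were lower and 0 higher in MS than in WI. Of the 31 other genes of the monooxygenase term, 11 were lower and 1 higher in MR than in WI, and 18 were lower and 8 higher in MS than in WI. MR and MS were set here against the same WI libraries.

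**Figure D3:**
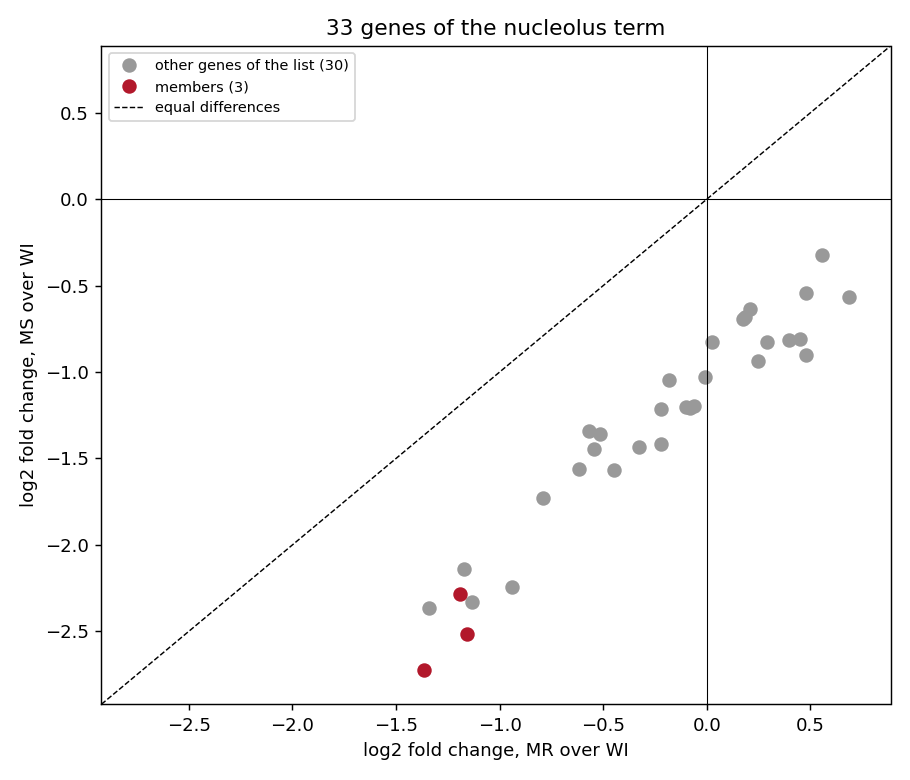
The 33 genes of the nucleolus term, with the log2 fold change of MR over WI on the horizontal axis and of MS over WI on the vertical axis, both from edgeR. Red points are the 3 members and grey points the other 30 genes, and the dashed line marks equal differences. The other genes have medians of -0.089 and -1.20. All genes lie below the dashed line. The list was drawn from MR to MS calls, which favours genes away from that line on either side. The place of the members follows from the rule.

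In the 3 detoxification families of the study's lists, 60 P450 genes, CPIJ003361 included, gave 4 higher and 11 lower calls in MR over WI, and 9 higher and 23 lower in MS over WI. The 26 glutathione S-transferases gave 1 higher and 1 lower in MR over WI, and 6 higher and 4 lower in MS over WI. The 8 esterases gave 3 higher and 0 lower in MR over WI, and 2 higher and 3 lower in MS over WI. Over all genes tested the calls took 4.95% higher and 3.99% lower in MR over WI, and 12.3% higher and 11% lower in MS over WI. The families hold only genes that the study called in these libraries, so calls against WI were favoured by the choice and nothing is read from their number. No glutathione S-transferase or esterase of these lists was a member.

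The remaining members called higher in MR than in MS came from several annotated functions or from none. CPIJ017734, annotated with protein-chromophore linkage, the attachment of a light-absorbing group to a protein as in visual pigments, had 3.71, 2.73, 2.96, 4.14 and 6.54 CPM in MR and 1.81, 2.44, 0.845, 1.86 and 1.31 CPM in MS. It had 15.5, 18.5, 7.52, 8.01 and 9.55 CPM in WI and 13.4, 10.4, 10.7, 7.53 and 8.66 CPM in CO (log2 fold change 1.28, SE 0.32, FDR 0.0155 for MR over MS, edgeR), and the MR to MS call was lost without MR 5, MS 3 or MS 5, at FDR values of at most 0.0592. CPIJ011725, shown above, was also called (log2 fold change 1.30, SE 0.30, FDR 0.0104, edgeR). CPIJ014132 (protein-containing complex binding), CPIJ013382 (protein serine kinase activity) and CPIJ005364 (purine nucleotide binding) were called with log2 fold changes of 1.08, 0.88 and 1.27 (edgeR). The pair CPIJ007741 and CPIJ007742, which carry consecutive identifiers and no term, had log2 fold changes of 1.41 and 1.58. The call of CPIJ007741 was lost without any of 9 single pools, at FDR values of up to 0.0899, and that of CPIJ007742 without MS 5, at 0.0515. The other called members, CPIJ009213, CPIJ012743, CPIJ014743 and CPIJ016931, have no printed term and had log2 fold changes of 1.57, 0.95, 1.20 and 1.26.

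WI and CO were likewise not ordered by the rule, which bounds both from below. Over all genes, 9.96% were called lower in MR than in CO and 3.99% lower in MR than in WI. The rule may thus favour genes that are higher in CO, which was not tested, and the shares over all genes are not matched to it. Here 9 members were called lower in WI than in CO and 1 higher, beside 4.15% lower and 6.3% higher over all genes tested (edgeR, FDR under 0.05). At an unadjusted p under 0.05 the counts were 21 lower and 4 higher, with no share over all genes taken, so nothing is read from them. The point estimate was lower in WI for 76 members, beside 51.5% of all genes, and the median log2 fold change was -0.24 over the members and -0.024 over all genes. The WI pools lay wholly below the CO pools in 5 members, beside 2.38% of all genes, and wholly above them in 1, beside 4.27%. With the replicate number as a block the counts were 12 lower and 2 higher, beside 1185 lower and 1979 higher over all genes. Leaving out CO 2 gave 3 higher, and the fit of WI and CO alone gave 5 lower. No share over all genes was taken in these fits, so nothing is read from either count. With library size alone 15 were lower and 0 higher, with 696 higher and 942 lower over all genes, against 1102 and 726 with TMM. That scaling moved the median of all genes to -0.35, and the members above the all-gene median numbered 32 under it and 28 with TMM.

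CPIJ006503, without a term, showed the largest fall in WI relative to CO. It had 0.956, 1.47, 3.77, 0.491 and 2.79 CPM in MR and 1.18, 1.35, 1.17, 3.53 and 2.54 CPM in MS. It had 10.6, 15.2, 5.06, 9.45 and 7.35 CPM in WI and 24.1, 43.3, 40.6, 90.5 and 43.9 CPM in CO, with no overlap between these groups (log2 fold change -2.35, SE 0.48, FDR 0.0029, edgeR). CPIJ007135, annotated with hydrolysis of ester bonds, had 0.521, 0.185, 0.633, 0.474 and 0.274 CPM in MR and 0.199, 0.180, 0.659, 0.0551 and 0.0673 CPM in MS. It had 0.734, 0.900, 1.04, 1.08 and 1.67 CPM in WI and 7.32, 3.77, 4.94, 4.73 and 4.05 CPM in CO, and all WI pools lay under all CO pools (log2 fold change -2.19, SE 0.51, FDR 0.0078, edgeR). CPIJ001083, annotated with acid phosphatase activity, the release of phosphate from esters at low pH, had 1.43, 1.59, 3.20, 4.18 and 1.35 CPM in MR and 1.23, 5.69, 4.53, 4.47 and 3.31 CPM in MS. It had 6.65, 14.6, 10.03, 10.5 and 13.96 CPM in WI and 13.4, 135, 14.7, 79.99 and 11.6 CPM in CO, where CO 2 and CO 4 stood far above the other colony pools, which overlapped with WI. Its call (log2 fold change -2.19, SE 0.59, FDR 0.0201, edgeR) was lost without CO 2, at a log2 fold change of -1.42 and an FDR of 0.0614, and in the fit of WI and CO alone, at 0.0843.

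CPIJ015481, the other member annotated with protein-chromophore linkage, had 22.6, 18.96, 22.3, 25.2 and 20.8 CPM in MR and 20.7, 21.1, 20.3, 17.4 and 19.2 CPM in MS, which overlapped (log2 fold change 0.15, SE 0.18, FDR 0.692 for MR over MS, edgeR). It had 68.2, 64.9, 55.3, 53.3 and 101 CPM in WI and 167, 179, 141, 210.3 and 158 CPM in CO, which did not overlap (log2 fold change -1.32, SE 0.18, FDR 5.9e-05 for WI over CO, edgeR). The exposed pools were thus close together while the unexposed groups stood apart. CPIJ012013, annotated as an inhibitor of endopeptidases, averaged 22.5 ± 6.38 CPM in MR and 15.5 ± 3.54 CPM in MS, against 45.8 ± 12.7 CPM in WI and 128 ± 46.99 CPM in CO (SD, n = 5 each; log2 fold change -1.48, SE 0.26, FDR 0.000786 for WI over CO, edgeR). CPIJ010124, without a term, averaged 12.8 ± 1.59 CPM in MR and 13.9 ± 4.94 CPM in MS, against 32.4 ± 5.98 CPM in WI and 62.8 ± 10.3 CPM in CO (SD, n = 5 each; log2 fold change -0.95, SE 0.21, FDR 0.0054 for WI over CO, edgeR). CPIJ009446, shown above, was called as well (log2 fold change -0.66, SE 0.21, FDR 0.0454, edgeR), but lost the call in 14 of the 20 fits that left out 1 library, with an FDR of up to 0.108, in the fit of WI and CO alone, at 0.174, and with no filter on low counts. Between MR and MS and between WI and CO together, 3 members were called in both comparisons: CPIJ012882, CPIJ012753 and CPIJ003537.

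**Figure D4:**
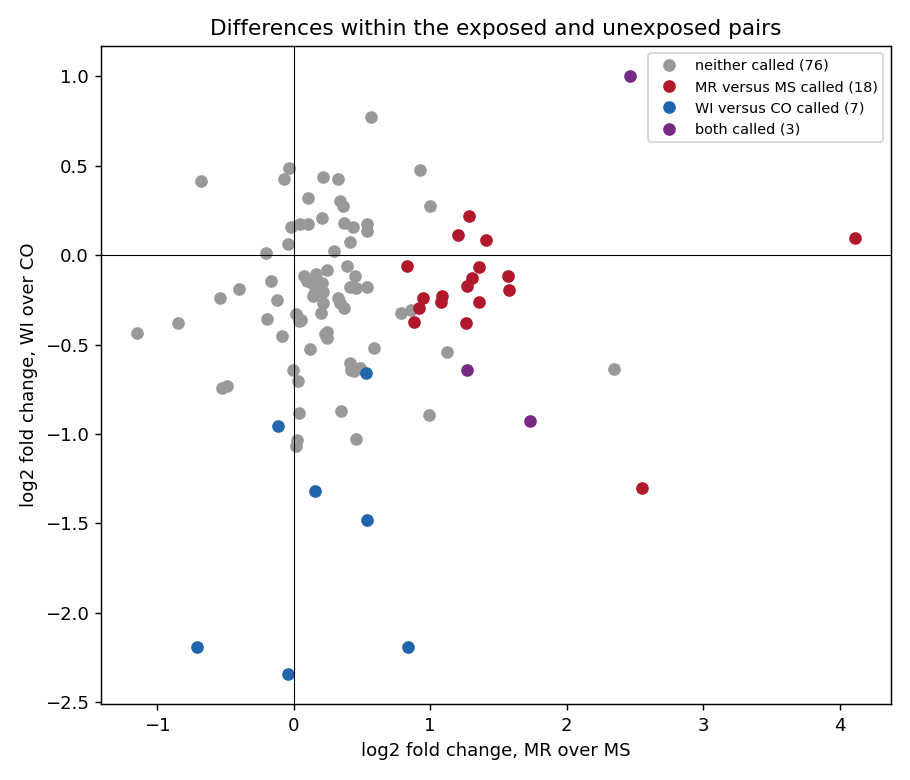
Each of the 104 members by its log2 fold change of MR over MS (horizontal axis) and of WI over CO (vertical axis), both from edgeR, coloured by which comparison passed FDR under 0.05. The 21 members called between MR and MS all lie right of 0, the 9 called lower in WI lie below 0, and the 3 called in both are purple.

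Within the unexposed groups the members did not vary independently of the pool. WI 2 held the highest WI value of 46 members and CO 2 the highest CO value of 56, that is 44.2% and 53.8% of the members, beside 20.6% and 24.9% of all genes tested. The pools WI 2, CO 2 and CO 4 were together above all other pools of their groups in 30 members (28.8%), beside 7.86% of all genes, and together below them in 0 members, beside 4.48%. These 3 pools were picked after their values were seen, and the counts are a description with no test. Over the 30 members the median level of WI 2 was 1.57-fold the mean of the other WI pools, that of CO 2 was 2.15-fold and that of CO 4 was 1.93-fold the mean of CO 1, CO 3 and CO 5. CPIJ015027, CPIJ001507, CPIJ012716, CPIJ001083, CPIJ012882 and the pair CPIJ007741 and CPIJ007742 are among the 30. Of the 30 members, 11 were highest in MR 5 among the MR pools and 16 were highest in MS 2 among the MS pools, against 15 and 19 of the other 74 members and 18.9% and 19.3% of all genes. The 3 pools also had many genes at 0 counts, 3508 in WI 2, 3255 in CO 2 and 3553 in CO 4, against 2024 to 2775 in the other WI pools and 2037 to 2650 in the other CO pools, and the part of this in the members' levels was not tested. The same-numbered pools WI 2 and CO 2 deviated together from their group means over all genes (r = 0.465).

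**Figure D5:**
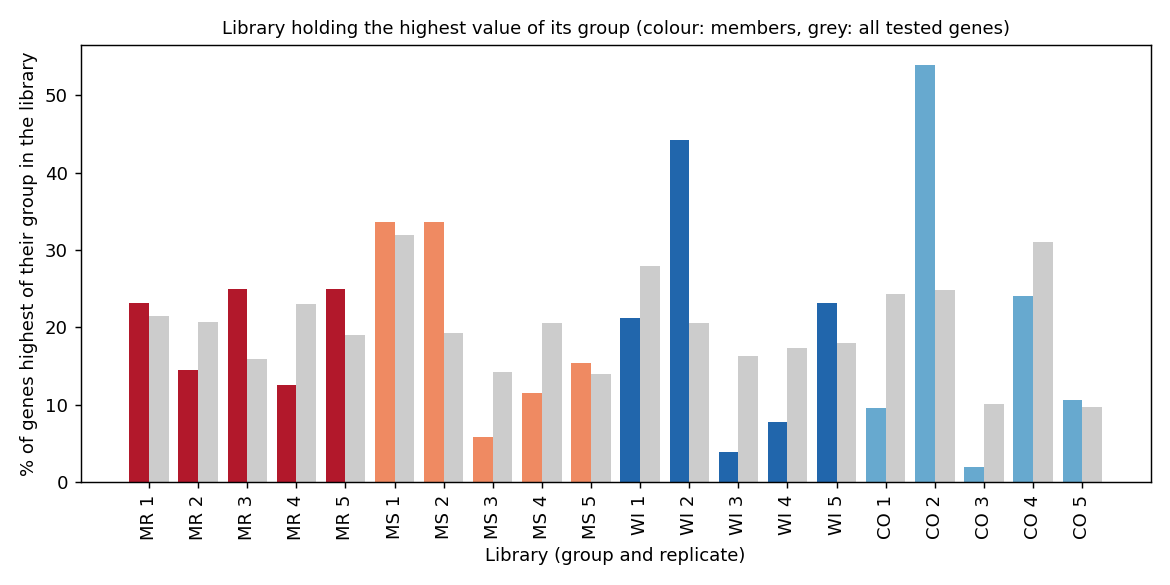
Share of genes whose highest value within a group fell in each library, for the 104 members (coloured bars) and for all genes tested (grey bars), with libraries in the order MR, MS, WI and CO. The members' bars for WI 2 (44.2%) and CO 2 (53.8%) stand above the grey bars (20.6% and 24.9%).

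The median spread between pools of a group was smaller in the members than over all genes tested. The median coefficient of variation was 21.7% in MR, 24.2% in MS, 28.3% in WI and 35.6% in CO over the members, and 27.8%, 26.6%, 33.4% and 48.1% in the same groups over all genes tested. The rule favours genes with little spread, so these values are a description.

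Some members carried consecutive identifiers. The pairs were CPIJ001960 and CPIJ001961, CPIJ003379 and CPIJ003380, CPIJ007741 and CPIJ007742, and CPIJ012752 and CPIJ012753, which make up 8 members. Of 188 tested genes with an identifier next to that of a member, 8 were members themselves (4.26%), beside 0.594% of all genes tested. Positions in the genome were not used here, and consecutive identifiers were not checked for shared sequence or shared reads. CPIJ012752 was called neither between MR and MS (log2 fold change 0.57, SE 0.51) nor between WI and CO (log2 fold change 0.77, SE 0.47), and its difference from CPIJ012753 was not tested.

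At the edge of the rule the genes just inside and just outside differed little in ratio. The last 3 members were CPIJ004284, CPIJ002119 and CPIJ017796, with ratios of 0.495, 0.499 and 0.4999. CPIJ004284 averaged 35.5 ± 4.17 CPM in MR and 25.9 ± 3.03 CPM in MS, against 71.7 ± 6.30 CPM in WI and 81.5 ± 20.2 CPM in CO. CPIJ002119 averaged 4.53 ± 0.858 CPM in MR and 4.75 ± 0.878 CPM in MS, against 12.8 ± 1.86 CPM in WI and 9.53 ± 1.88 CPM in CO. CPIJ017796 averaged 4.33 ± 0.917 CPM in MR and 3.74 ± 1.05 CPM in MS, against 8.66 ± 1.74 CPM in WI and 9.98 ± 3.95 CPM in CO (SD, n = 5 in each group of these genes). The nearest genes outside were CPIJ007050, CPIJ017211 and CPIJ014801, with ratios of 0.501, 0.503 and 0.504 and no overlap of exposed and unexposed pools. CPIJ007050 had means of 20.7 CPM in MR and 10.05 CPM in MS, against 41.3 CPM in WI and 44.5 CPM in CO. Of the 11806 genes that met the level criteria, 230 had every exposed pool below every unexposed pool. Both exposed means were at most 0.5 times the lower unexposed mean in 267. With each library left out in turn, between 97 and 132 genes met the rule, 71 of the 104 members met it every time, 14 failed in 1 case and 19 in 2 or more.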

How the data were processed

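RNA of 20 pools of whole females was sequenced with a directional kit, and the samples were grouped by their GEO labels into MR, MS, WI and CO, with 5 pools each. Per the labels and the study's methods, the authors trimmed reads with Trim Galore 0.6.4, aligned them with STAR 2.7.3a in 2 passes to the VectorBase genome, processed the alignments with Picard 2.20.1 and counted them on genes with featureCounts 1.6.0. The counts as deposited are whole numbers for each gene and library, with no normalization. Which strand and multiple-mapping settings were used for counting is not given in the sources used here. Reads of overlapping, antisense or near-identical genes may therefore not be told apart.

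Totals of 143972261 to 189723320 counts per library leave little counting error except for genes with few reads. Replicate pools of a group differed beyond counting noise on average over genes (mean chi-square per gene 143 in the pair of pools where it was lowest). That mean gives much weight to the most counted genes and was not judged gene by gene. In R 4.3.3, edgeR 4.0.16 (with limma 3.58.1) was used with TMM factors, filterByExpr (minimum count 10, minimum total 15) and a quasi-likelihood fit of 1 mean per group to all 20 libraries, with Benjamini-Hochberg FDR under 0.05 over 17499 genes. The common biological coefficient of variation was 0.535. A prior count of 2 entered only the log2 CPM behind the check of replicate pairs. DESeq2 1.42.0 served as an alternative.

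The members and the gene lists were chosen with earlier results of these data known. Members named with values were the 10 first by rank, the 5 highest in unexposed pools, the members in the detoxification lists, the 3 largest called changes in each direction between MR and MS and between WI and CO, the 3 nearest to the limit of the rule on each side, and the 5 best ranked other members with a GO term. The other called or annotated members named in the text were chosen after their values were seen.

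Same-numbered WI and CO pools deviated together from their group means (r = 0.308, 0.465, 0.233, 0.222 and 0.168 for replicates 1 to 5). The replicate number was taken to pair them only in an alternative fit, as a block. The main fit and its FDR values used no pairing. The link comes from these correlations and not from the labels, and replicate 5 correlated better with another number (0.262) than with its own. The alternatives were other scalings, other filters on low counts, DESeq2, the replicate block, a fit of only the 2 groups compared and each library left out in turn. TMM factors without the most counted pair of genes were added after seeing the data. The RefSeq gene table at hand matched 0 of the 104 member identifiers, and no sequence of a member was used here.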

Additional observations from a re-analysis of the deposited data

Results flagged for a closer look

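The 5 pools of each group were checked for a pool far from the other 4 (Dixon's test, critical value 0.71) in the 28 members named by rule. Of 112 sets of 5 pools, 13 had one. Chance gives about 5% for independent, normally distributed values. These sets share libraries, hold CPM and come from genes picked by their values, so no excess is read from the number. High values stood out in WI 2 and CO 2. CPIJ001507 had 226 CPM in WI 2, with the other WI pools between 73.3 and 111 CPM. CPIJ016563 had 20.7 CPM in CO 2, with 3.32 to 7.20 CPM in the other CO pools, and CPIJ010968 had 1149.9 CPM in CO 2, with 495.7 to 604 CPM in the others. Among the low ones, CPIJ012752 had 1.54 CPM in WI 2, with 7.60 to 9.88 CPM in the other WI pools, and CPIJ012753 had 58.7 CPM in CO 2, with 89.8 to 101 CPM in the other CO pools. WI 2 and CO 2 thus hold all 5 outlying unexposed values, in both directions.

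In MR pools, CPIJ015027 had 21.0 CPM in MR 5 (others 6.41 to 9.51 CPM), CPIJ012716 had 0.699 CPM in MR 3 (others 0.160 to 0.314 CPM) and CPIJ009446 had 652 CPM in MR 1 (others 474 to 512 CPM). In MS pools, MS 1 was high in CPIJ010690 (1.87 CPM, others 0.730 to 0.991 CPM), in CPIJ016941 (54.9 CPM, others 34.5 to 38.5 CPM) and in CPIJ001130 (102 CPM, others 66.7 to 76.3 CPM). CPIJ016563 had 0.279 CPM in MS 5 (others 0 to 0.0321 CPM) and CPIJ007135 had 0.659 CPM in MS 3 (others 0.0551 to 0.199 CPM). The part of library quality in these values was not tested.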

How the results depend on the processing

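Of 868 values of called members under the alternatives, 800 kept their call and direction, 0 reversed and 68 lost the call, and the report names the members concerned. Library size alone turned the balance of calls over all genes in both comparisons, as the report gives. It called 44 members higher in MR than in MS (21 in the report, all 21 shared), 15 lower (9, all shared) and 0 higher (1) in WI than in CO, and moved the members' median log2 fold change to -2.49 for MS over WI, -1.95 for MR over CO and -3.08 for MS over CO. It gave 128 genes that meet the rule, 75 of them members, against 101 of 104 under RLE factors and 102 of 109 with the most counted pair left out of TMM, and the number was 97 without WI 2 and 132 without CO 4. In the fit of only the 2 groups compared, 1 member was lower in MR than in MS (0) and 5 were lower in WI than in CO (9), and the cause was not tested. No share over all genes was taken in that fit, so nothing is read from these counts. The replicate block gave 2 members higher in WI than in CO (1), while the calls over all genes rose from 1102 to 1979 higher. MR and MS pools of one number did not deviate together (r between -0.0246 and 0.127, and not each highest with its own number). The block moved the count of members called between them to 24. Over all genes it gave 1034 higher and 1414 lower in MR than in MS, against 483 and 732 in the report.

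Over the fits without 1 library, the members called were 16 to 21 higher and 0 to 1 lower (1 without MS 2) in MR than in MS. In WI against CO they were 1 to 3 higher (3 without CO 2) and 7 to 10 lower. The shares over all genes were not taken for these fits, so nothing is read from the counts. The members' medians were -1.83 to -1.59 for MR over CO and -2.37 to -2.14 for MS over CO, both nearest to 0 without CO 2. Depth limits only members with few reads, such as CPIJ018085 and CPIJ016563 in MS pools.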
